A study of Mus musculus with 4 samples.

Results

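The genes of glycolysis and of the response to low oxygen were followed in C2C12 cells, a line of mouse myoblasts that can be induced to fuse into muscle fibres, after knockdown of Sfmbt1, which encodes an MBT-domain protein that binds chromatin. The list held 35 genes: 7 for oxygen sensing and the hypoxia-inducible factors (HIF), 18 for glucose transport, glycolysis and the fate of pyruvate, and 10 other genes known to respond to low oxygen. For each gene, 1 probe set was taken from those that the array annotation assigns to that gene alone, the one with the highest mean log2(signal + 16) over the arrays. Of the 35 genes, 33 had such a probe set, among 18194 genes that had one, and 31 were bright enough to be tested. Gapdh was measured outside the test, by control probe sets and by probe sets assigned to several genes, and for Gpi1 none was matched.

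The knockdown group was C2C12 carrying shSFMBT1, a short hairpin RNA (n = 2), and its control was C2C12 carrying a control hairpin (n = 2), which the labels call scramble shRNA in one place, shLuc in another, and a vector control in the titles. Both were stable lines selected and maintained in 2 ug/ml puromycin and grown in DMEM with 20% serum at 37 °C and 5% CO2, and no low-oxygen condition or differentiation medium is named for either. One hairpin is named per group, without saying whether the 2 samples came from separate transductions. RNA from each sample was hybridised to its own Affymetrix array, 4 in all, from 100 ng of total RNA.

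Cells sense oxygen through prolyl hydroxylases (Egln1, Egln2 and Egln3), which mark HIF alpha subunits for capture by the von Hippel-Lindau protein and for degradation. When oxygen is scarce the alpha subunit (Hif1a or Epas1) is stabilised, pairs with Arnt and binds hypoxia response elements whose core reads ACGTG or GCGTG. Its targets include the genes for glucose uptake, for nearly every step of glycolysis and for lactate production. Muscle fibres can draw heavily on glycolysis and express their own forms of several of its enzymes.

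The promoters of 3 members are shown because these members had the smallest p-values in the comparison below. Each is a RefSeq window (GRCm38.p6) of 300 bases, from 250 before to 50 after a start of the gene, on the gene's strand. Capitals mark ACGTG or GCGTG read on either strand, so that CACGT and CACGC are the same cores on the opposite strand. The P4ha1 window is chr10:59323046-59323345 on the + strand, the Egln3 window is chr12:54203825-54204124 on the - strand, and the Ldha window is chr7:46845554-46845853 on the + strand.
P4ha1: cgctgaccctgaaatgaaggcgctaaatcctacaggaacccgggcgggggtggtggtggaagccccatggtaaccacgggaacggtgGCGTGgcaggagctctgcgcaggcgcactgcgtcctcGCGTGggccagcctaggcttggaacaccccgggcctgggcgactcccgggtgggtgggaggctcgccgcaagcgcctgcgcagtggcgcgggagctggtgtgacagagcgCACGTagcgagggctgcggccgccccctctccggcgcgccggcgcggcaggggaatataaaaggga
Egln3: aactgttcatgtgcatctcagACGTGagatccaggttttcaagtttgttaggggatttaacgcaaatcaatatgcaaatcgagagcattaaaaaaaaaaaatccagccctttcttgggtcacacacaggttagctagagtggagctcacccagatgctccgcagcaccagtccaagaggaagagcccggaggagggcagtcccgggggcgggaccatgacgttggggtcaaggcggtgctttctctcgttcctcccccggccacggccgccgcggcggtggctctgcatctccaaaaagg
Ldha: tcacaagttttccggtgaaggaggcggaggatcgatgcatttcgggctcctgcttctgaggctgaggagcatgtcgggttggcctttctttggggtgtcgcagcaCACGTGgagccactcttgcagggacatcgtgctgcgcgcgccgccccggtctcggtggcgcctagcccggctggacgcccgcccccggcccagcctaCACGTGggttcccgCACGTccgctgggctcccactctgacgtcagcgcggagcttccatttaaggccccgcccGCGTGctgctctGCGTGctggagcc

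The P4ha1 window held 3 cores and the Egln3 window 1. The Ldha window shown held 7, because its 2 CACGTG palindromes, which are also E-box sequences, each count on both strands. Ldha has a second window, chr7:46846832-46847131 on the + strand, which is not shown and held 2 cores and no CACGTG. At least 1 core was present in a window of 29 of the 32 members with an entry (90.6%), against 46.7% of 27025 genes. By window, 36 of 45 (80%) held one, against 43.8% of 32851 windows of the same length. The member windows were also richer in GC (61.3%, against 53.8% over all windows) and in CG pairs (median 20, against 7), and the part of base composition in the difference was not tested. CACGTG stood in 6 of the member windows. A match is a run of letters and says nothing of binding in these cells.

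The median signal of one-gene probe sets was 125.2 and 137.2 on the knockdown arrays, against 132.7 and 139.1 on the control arrays. The background limit of an array, set by its 27 bacterial control sequences at their 95th percentile, was 69.3 and 42.9 in knockdown and 49.1 and 53.2 in control, so knockdown replicate 1 had both the lowest median and the highest background. All 5 Sfmbt1 probe sets were lower in both knockdown arrays than in both control arrays, at 14.4% to 69.2% of control. All 4 arrays of the lowest of these lay in the background. That probe set was too dim to test. Of the others, with every probe set fitted, 2 passed (limma adjusted p = 0.0416 and 0.0107). The probe set that stood for the gene did not pass in the fit with 1 probe set per gene (log2 -0.54, limma adjusted p = 0.271). Markers of differentiating muscle rose: 8 of 9 passed, and their summed signal was 8066 and 8651 in knockdown, against 2196 and 1864 in control. Of 7 myoblast markers 1 rose (Msc) and 0 fell, with sums of 14378 and 15048 in knockdown against 14171 and 15873 in control. Both knockdown arrays lay below both control arrays in 4 of them (57.1%, beside 21.6% of all genes). They lay above in 3 (42.9%, beside 23.5%), and the median log2 difference of the 7 was -0.16. Of 6 fibroblast markers 5 were tested and 1 rose (Col1a1, type I collagen). The sums over all 6 were 16618 and 17351 in knockdown against 14091 and 13808 in control. Most of each sum came from Col3a1, which was not called. Macrophage (3 tested), endothelial (1) and adipocyte (3) markers gave 0 calls. The sums cover the 5, 5 and 4 markers of these types with a probe set, tested or not. In knockdown they were 542.1 and 756.7, 329.9 and 359.1, and 806.3 and 699.5. In control they were 695.6 and 793.4, 404.7 and 386.8, and 1008 and 874.7. No marker was listed at 0, and 2 macrophage, 2 endothelial and 1 adipocyte marker lay in the background on every array. The part of the shift in muscle markers in any difference below was not tested. In such bulk RNA, fewer cells of a type and less RNA per cell cannot be told apart.

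Most of the glycolytic and hypoxia-response genes differed little between knockdown and control cells. P4ha1, a subunit of the enzyme that hydroxylates prolines in collagen, was the 1 member called higher, and 0 were called lower. The P4ha1 call lay close to the threshold (limma adjusted p = 0.0486) and was lost under several alternatives. A second P4ha1 probe set had the opposite sign. Among the strongest signals on the arrays were those of the glycolytic genes Gapdh, Pgk1, Pkm, Ldha and Aldoa. In their brightest probe sets the log2 differences lay between -0.06 and 0.32. The genes for glucose entry and the preparatory steps had mostly positive differences without a call, and the oxygen sensors and HIF subunits were split in direction.

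In numbers, 1 of 31 tested members was called higher at a limma adjusted p under 0.05, which is 3.23% beside 1.81% of 11949 genes, and 0 were called lower beside 2.12%. Over both directions 3.93% of genes were called. A count of 1 called member lies near that background. A positive log2 difference was found in 18 of 31 members (58.1%), beside 52.5% of all genes. Both knockdown arrays stood above both control arrays in 13 members (41.9%), beside 23.5% of genes, and below them in 6 (19.4%), beside 21.6%. An unadjusted p under 0.05 was reached by 7 of the 31 members (5 positive and 2 negative). Over all genes it was reached by 1914 of 11949, or 16.02%.

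The median log2 difference over the tested members was 0.04 (0.02 over all genes), and the median absolute difference was 0.17 (0.18 over all genes). The members ranged from -0.48 to 0.59, and 29 of 31 lay within 0.5 log2 units of 0. The 95% interval of the difference lay within 1 log2 unit of 0 on both sides for 27 members and within 0.5 for 15. It included 0 for 24. For these 27 members a change of 1 log2 unit in either direction therefore lay outside the interval. For 15 of them a change of 0.5 log2 units did too. Smaller changes were not resolved for most members with 4 arrays, since 24 of 31 intervals included 0. Differences are on the log2(signal + 16) scale, where the added 16 shrinks those of dim genes, and p-values cover only the spread between these cultures.

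**Figure D1:**
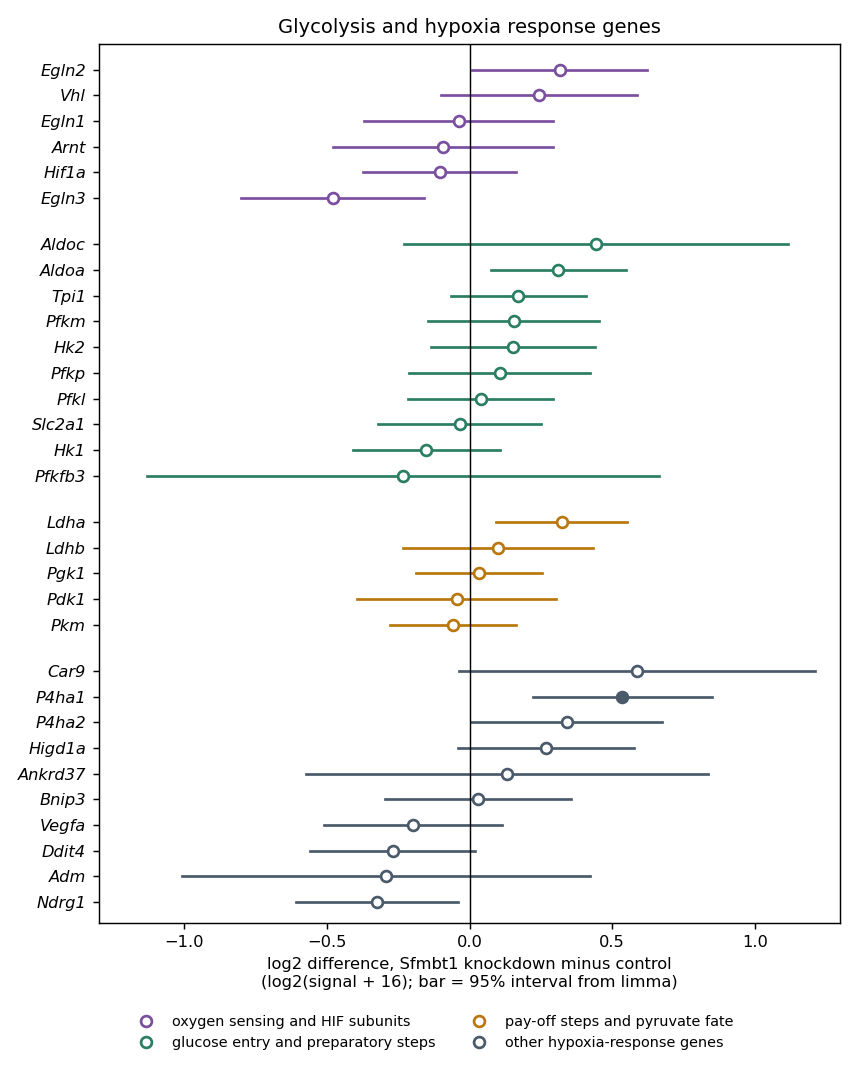
Log2 difference, knockdown minus control, of the 31 tested members grouped by role (points, with 95% intervals from limma as bars; the filled point is the member with an adjusted p under 0.05). Most intervals include 0, the extremes are Egln3 at -0.48 and Car9 at 0.59, and P4ha1 at 0.54 is the called member.

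Among the 7 genes for oxygen sensing and HIF subunits, 6 were tested and 0 passed in limma. Of the 6, 2 had an unadjusted p under 0.05, beside 16.02% of all genes. The median log2 difference of the 6 was -0.07, with 2 positive values. Egln3, the prolyl hydroxylase that is itself strongly induced by HIF, had signals of 839.2 and 1085 in knockdown, against 1403 and 1275 in control. Both knockdown arrays lay below both control arrays (log2 -0.48, SE 0.15, limma adjusted p = 0.0911, 95% interval -0.80 to -0.16). The value depended on which array was left out. It was -0.30 without knockdown replicate 1 (limma adjusted p = 0.380), -0.66 without knockdown replicate 2, where it passed (0.00638), -0.41 without control replicate 1 (0.460) and -0.55 without control replicate 2 (0.162). A second Egln3 probe set was also lower in both knockdown arrays, with 403.2 and 487.4 against 530.4 and 534.0 in control (log2 -0.26, adjusted p = 0.498 with every probe set fitted).

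Egln2, a prolyl hydroxylase that HIF does not induce, leaned the other way. Its signals were 1028 and 991.4 in knockdown, against 817.9 and 797.0 in control, with no overlap (log2 0.32, SE 0.15, limma adjusted p = 0.293). Vhl, the substrate receptor of the ligase that takes HIF alpha to degradation, had 555.9 and 599.3 in knockdown against 486.3 and 484.7 in control (log2 0.24, limma adjusted p = 0.524). A second Vhl probe set had the opposite sign, with 274.8 and 234.8 in knockdown against 327.4 and 321.4 in control (log2 -0.33, adjusted p = 0.431).

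Hif1a, the oxygen-regulated subunit, was bright, and its groups overlapped. It had 2918 and 3108 in knockdown, against 2979 and 3523 in control (log2 -0.10, 95% interval -0.37 to 0.16, limma adjusted p = 0.775). Oxygen acts on the HIF1A protein more than on its RNA, so this level does not report HIF activity. Of its 3 other tested probe sets 1 did not overlap, with 1176 and 976.1 in knockdown against 1461 and 1413 in control (log2 -0.42, adjusted p = 0.148), and the groups of the others overlapped (log2 -0.02 and 0.24). The constitutive partner Arnt (log2 -0.09) and Egln1, the main oxygen sensor in most tissues (log2 -0.04), had overlapping groups in their brightest probe sets. Another Arnt probe set passed as higher with every probe set fitted and is described below. Epas1, which encodes HIF-2 alpha, was too dim to test, with 37.0 and 67.4 in knockdown against 34.8 and 3.3 in control, and both control arrays and knockdown replicate 1 lay in the background.

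For glucose entry and the preparatory, ATP-consuming steps of glycolysis, 12 genes were listed, 10 were tested and 0 passed in limma. Of the 10, 1 had an unadjusted p under 0.05, beside 16.02% of all genes. The differences were positive in 7 of 10 (8 of 10 after centring each array, 7 after quantile normalization), with a median of 0.13. In the same count of 7 members both knockdown arrays lay above both control arrays, beside 23.5% of all genes, and in 1 (Hk1) below, beside 21.6%. Aldoc, the aldolase isozyme best known from brain, had 122.5 and 194.2 in knockdown, against 100.2 and 119.6 in control. The groups did not overlap, but the knockdown arrays were far apart (log2 0.44, SE 0.32, 95% interval -0.23 to 1.11, limma adjusted p = 0.561). Aldoa, the muscle aldolase that splits fructose bisphosphate, had 13517 and 14712 in knockdown, against 10825 and 11926 in control. Each knockdown array exceeded each control array (log2 0.31, SE 0.11, 95% interval 0.08 to 0.55, limma adjusted p = 0.151). Genes called higher numbered 430 after centring and 295 after quantile normalization, against 216 as reported. Aldoa passed in both, at 0.36 (limma adjusted p = 0.0169) and 0.26 (limma adjusted p = 0.0284). Its other 4 tested probe sets differed by 0.01 to 0.29, all positive.

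Slc2a1, the basal glucose transporter GLUT1 and a classical HIF target, had 1844 and 2245 in knockdown, against 2029 and 2143 in control. The groups overlapped (log2 -0.04, 95% interval -0.32 to 0.25, limma adjusted p = 0.938). Its sign turned to 0.011 after centring. The transporter gene Slc2a3 was too dim to test, with 34.0 and 115.7 in knockdown and 43.7 and 102.6 in control.

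Hexokinases trap glucose in the cell by phosphorylating it. Hk2, the inducible muscle form, had 1483 and 1607 in knockdown against 1329 and 1447 in control (log2 0.15, limma adjusted p = 0.662). Hk1, the housekeeping form, had 2915 and 2938 in knockdown against 3239 and 3264 in control (log2 -0.15, limma adjusted p = 0.616). In each the groups stood apart, in opposite directions, and neither passed in its brightest probe set. A second Hk1 probe set passed as lower with every probe set fitted and is described below.

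The phosphofructokinase genes, which encode the committing step, differed by 0.04 (Pfkl), 0.15 (Pfkm, the muscle form) and 0.11 (Pfkp) on the log2 scale. In each, both knockdown arrays lay above both control arrays, as in 23.5% of all genes, and none was called. Of the 3, Pfkl had the narrowest interval, -0.21 to 0.29. Their other probe sets did not all share the sign: those of Pfkp gave -0.24, with both knockdown arrays below, and -0.41, with overlap, and those of Pfkl gave -0.05 and 0.12. Pfkfb3, which makes the activator fructose 2,6-bisphosphate, was dim, with 64.6 and 80.6 in knockdown and 67.3 and 113.3 in control (log2 -0.23, 95% interval -1.13 to 0.66, limma adjusted p = 0.860). Tpi1, which interconverts the triose phosphates, had 9604 and 9543 in knockdown against 8112 and 8903 in control (log2 0.17, limma adjusted p = 0.508). Gpi1, the isomerase between hexokinase and phosphofructokinase, was not analysed here.

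For the pay-off steps and the fate of pyruvate, 6 genes were listed, 5 were tested and 0 passed in limma. Of the 5, 1 had an unadjusted p under 0.05, beside 16.02% of all genes. The median log2 difference of the 5 was 0.03 (-0.02 after quantile normalization). Ldha, the lactate dehydrogenase subunit that favours lactate formation, is a classical HIF target, and its window with 7 cores is shown above. It had 21775 and 23316 in knockdown, against 17064 and 18992 in control. Both knockdown arrays lay above both control arrays (log2 0.32, SE 0.11, 95% interval 0.09 to 0.55, limma adjusted p = 0.122). After centring, where 430 genes were called higher against 216 as reported, Ldha passed (0.37, limma adjusted p = 0.0139). Ldha also passed after quantile normalization, where 295 genes were called higher (0.22, limma adjusted p = 0.0471).

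Its counterpart Ldhb, the subunit common in heart, had 658.4 and 706.0 in knockdown against 682.1 and 591.4 in control in its brightest probe set. The groups overlapped there (log2 0.10, 95% interval -0.23 to 0.43, limma adjusted p = 0.835). Its other probe sets are described below.

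Pgk1, which makes the first ATP of the pay-off phase, had 29716 and 31522 in knockdown, against 29093 and 30768 in control (log2 0.03, 95% interval -0.19 to 0.25, limma adjusted p = 0.928). Pkm, which makes pyruvate, had 22008 and 21555 in knockdown, against 22455 and 22909 in control (log2 -0.06, 95% interval -0.28 to 0.16, limma adjusted p = 0.858). In Pkm both knockdown arrays lay just below the control arrays, while those of Pgk1 overlapped. The other Pgk1 probe sets stood apart above control, at 0.15 and 0.30 (adjusted p = 0.549 and 0.284 with every probe set fitted). The sign for the brightest Pgk1 probe set turned to -0.03 after quantile normalization. Pdk1, the kinase that closes the entry of pyruvate into mitochondria, had overlapping groups, with 486.8 and 524.9 in knockdown and 550.4 and 495.4 in control (log2 -0.05, limma adjusted p = 0.934).

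Gapdh, the first enzyme of the pay-off phase and a common reference gene, was read by 3 control probe sets that stay outside the test. The 5' set had 36369 and 36122 in knockdown, against 35661 and 36551 in control. The log2 differences of the 5', middle and 3' sets were 0.01, 0.03 and 0.02. Its probe sets assigned to several genes, also outside the test, differed by 0.003, 0.13 and 0.36. The last of these was much dimmer, with 603.0 and 617.8 in knockdown against 390.1 and 574.1 in control. When mouse control probe sets were kept in the fit, an alternative chosen after seeing the data, Gapdh had an adjusted p of 0.988 (limma, SE 0.10). The brightest probe set on each array read 45964 and 43909 in knockdown and 43900 and 43939 in control, so Gapdh and Pgk1 lay in the upper part of the range of signals.

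**Figure D2:**
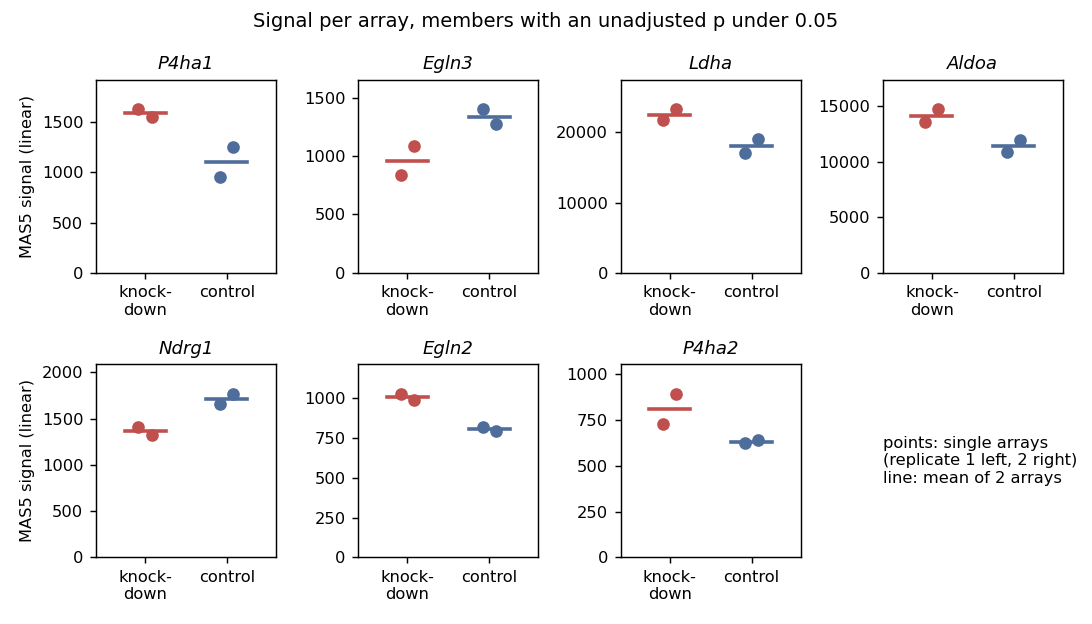
MAS5 signal on a linear axis from 0 for the 7 members with an unadjusted p under 0.05 (1 point per array, knockdown left of control; lines are means of 2 arrays). The knockdown points lie above the control points for P4ha1, Ldha, Aldoa, Egln2 and P4ha2 and below them for Egln3 and Ndrg1, and by this choice of members the groups had to differ.

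Of the 10 other hypoxia-response genes all were tested. In limma 1 rose (10%, beside 1.81% of all genes) and 0 fell (beside 2.12%). Positive differences numbered 6 (60%, beside 52.5% of all genes). P4ha1 encodes the catalytic alpha subunit of collagen prolyl 4-hydroxylase and is a HIF target. It had 1630 and 1554 in knockdown, against 952.5 and 1253 in control. Both knockdown arrays were higher, and the control arrays were farther apart than the knockdown ones. The means were 1592 ± 54.1 in knockdown and 1103 ± 213 in control (SD, n = 2 each), a log2 difference of 0.54 (SE 0.15, 95% interval 0.22 to 0.85, limma adjusted p = 0.0486).

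The call for P4ha1 sat close to the threshold. Without control replicate 1 the difference was 0.34 (limma adjusted p = 0.580), and without knockdown replicate 1 the adjusted p was 0.0649. It was 0.0718 when the brightness limit was taken over all probe sets, an alternative chosen after seeing the data, and 0.0521 after quantile normalization. A second P4ha1 probe set (1426519) did not share the direction, with 767.4 and 755.7 in knockdown against 780.7 and 881.6 in control (log2 -0.12, adjusted p = 0.754 with every probe set fitted). Beside P4ha1, the collagen gene Col1a1 rose, with 1222 and 1286 in knockdown against 277.3 and 348.6 in control (log2 1.96, limma adjusted p = 2.84e-07). The brighter collagen gene Col3a1 had 14870.6 and 15624.4 in knockdown against 13414 and 12970.5 in control. It was not called (log2 0.21, limma adjusted p = 0.370). The part of either collagen gene in the P4ha1 difference was not tested.

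P4ha2, the related subunit, had 724.1 and 890.6 in knockdown, against 622.9 and 639.0 in control, with no overlap (log2 0.34, SE 0.16, 95% interval 0.01 to 0.67, limma adjusted p = 0.300). Car9, the membrane carbonic anhydrase that is among the most HIF-dependent genes in many cells, had 165.5 and 186.5 in knockdown, against 96.4 and 129.0 in control. It had the highest log2 difference of the members (0.59), and its SE of 0.30 left it short of the threshold (95% interval -0.04 to 1.21, limma adjusted p = 0.352). Higd1a, a mitochondrial protein induced by hypoxia, differed by 0.27 with overlapping groups (limma adjusted p = 0.403), and a second probe set gave -0.23.

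Other classical targets of low oxygen lay on the negative side. Ndrg1, a stress-induced gene, had 1405 and 1319 in knockdown, against 1655 and 1767 in control, with no overlap (log2 -0.33, SE 0.14, 95% interval -0.61 to -0.04, limma adjusted p = 0.230). Ddit4, an inhibitor of mTORC1 signalling, had 1158 and 1252 in knockdown against 1451 and 1457 in control (log2 -0.27, limma adjusted p = 0.358). Vegfa, the main angiogenic factor, had 994.3 and 846.5 in knockdown against 1027 and 1085 in control (log2 -0.20, limma adjusted p = 0.578). In all 3 both knockdown arrays lay below both control arrays, and none passed. These were the 3 of the 10 genes of this role apart below control (30%, beside 21.6% of all genes). Another 3 were apart above (30%, beside 23.5%). A second Vegfa probe set overlapped and had the opposite sign, with 775.3 and 1000.3 in knockdown against 784.7 and 948.9 in control (log2 0.03). Without knockdown replicate 2 the Vegfa difference was -0.08.

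The rest were near 0 or imprecise. Bnip3, a receptor for removal of mitochondria and a strong HIF target, had 897.7 and 1094 in knockdown against 886.0 and 1064 in control (log2 0.03, 95% interval -0.30 to 0.36, limma adjusted p = 0.957). Adm, the vasodilator peptide adrenomedullin, had 125.3 and 82.2 in knockdown and 121.3 and 135.4 in control (log2 -0.29, 95% interval -1.01 to 0.42). Ankrd37, a small HIF target, had 124.7 and 115.2 in knockdown and 123.3 and 94.3 in control (log2 0.13, 95% interval -0.57 to 0.84). The groups of all 3 overlapped.

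Many members had more than 1 probe set, and these did not always agree. The members had 79 one-gene probe sets, of which 66 passed the brightness filter, in 18 members more than 1. Of the 35 tested probe sets beyond the brightest, 23 had the same sign as it. With every probe set fitted on its own, 2 member probe sets passed as higher, beside 1.39% of 20967 probe sets, and 1 as lower, beside 2.08%. P4ha1 did not pass in that fit (adjusted p = 0.0770). The median over the 66 was 0.03.

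The 3 probe sets that passed belonged to genes whose brightest probe set did not. For Ldhb, probe set 1448237 had 347.1 and 373.1 in knockdown, against 182.3 and 183.7 in control (log2 0.92, SE 0.20, limma adjusted p = 0.0242). A further Ldhb probe set (1455235) had 181.9 and 217.3 in knockdown against 111.8 and 125.6 in control (log2 0.68, adjusted p = 0.212). Both stood above control, unlike the brightest one.

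For Arnt, probe set 1419996 had 466.7 and 390.0 in knockdown against 246.4 and 222.3 in control (log2 0.82, SE 0.19, limma adjusted p = 0.0324), whereas the brightest gave -0.09. For Hk1, probe set 1420901 had 1586 and 1338 in knockdown against 2224 and 2076 in control (log2 -0.56, SE 0.14, limma adjusted p = 0.0410), in the same direction as the brightest at -0.15. The transcript positions of these probe sets were not used here, so whether they read different isoforms was not tested.

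**Figure D3:**
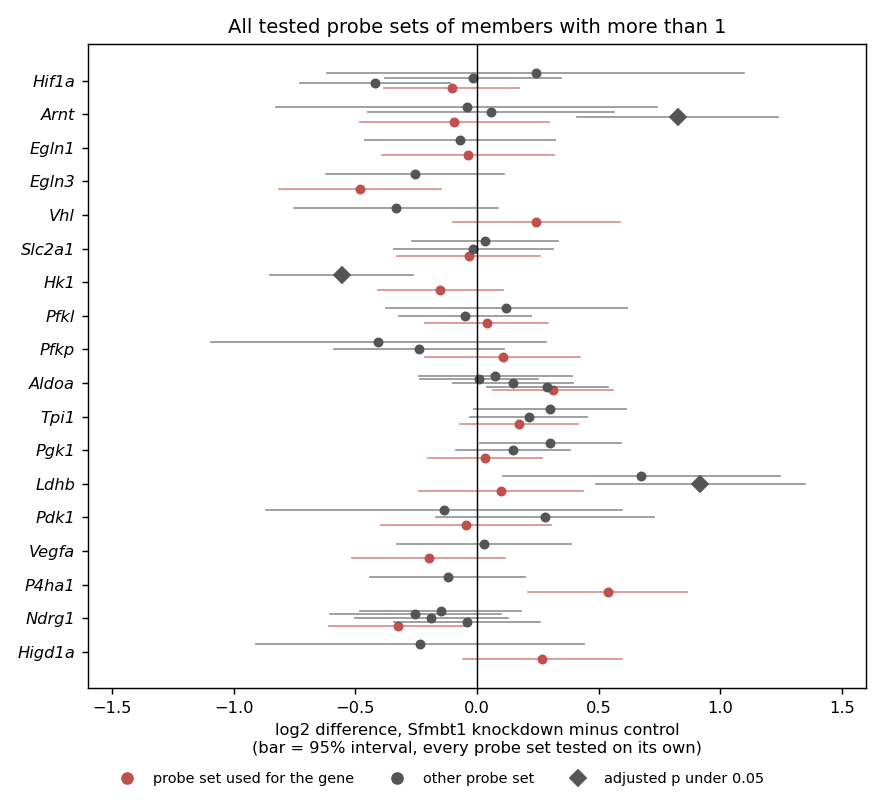
Log2 difference, knockdown minus control, of each tested probe set for members with more than 1 (red for the probe set used for the gene, grey for the others, diamonds for an adjusted p under 0.05, bars for 95% intervals). Probe sets of Arnt, Ldhb and P4ha1 differ in value or sign, at 0.82 and -0.09 for Arnt.

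Wider lists placed the members beside further genes chosen from the same pathways and from steps next to them, such as transport and pyruvate entry. Of 41 further glycolysis genes 31 were tested, 0 rose (beside 1.81% of all genes) and 2 fell (beside 2.12%), and 17 differences, or 54.8%, were positive (beside 52.5%), with a median of 0.09. Slc16a1, the lactate and pyruvate transporter MCT1, had 1112 and 1255 in knockdown, against 2691 and 3119 in control. Both knockdown signals were below the lowest control signal by a wide margin (log2 -1.28, SE 0.14, limma adjusted p = 5.06e-06). Eno3, the muscle enolase, had 5258 and 5962 in knockdown, against 9245 and 9246 in control (log2 -0.72, SE 0.12, limma adjusted p = 7.45e-04). Eno3 is a gene of muscle fibres, and it fell while 8 of 9 differentiating muscle markers rose. Eno1, another enolase gene on the list, had no matched one-gene probe set. Both calls held when any single array was left out, at -1.39 to -1.18 for Slc16a1 and -0.81 to -0.63 for Eno3. They were lost without the variance trend (0.0742 and 0.184), and that of Eno3 also without the brightness filter (0.0708). The next smallest p was that of Pfkfb4, which was not called (log2 0.64, adjusted p = 0.0664).

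Of 68 further hypoxia-response genes 55 were tested, 2 rose (3.64%, beside 1.81% of all genes) and 2 fell (3.64%, beside 2.12%). Positive differences numbered 25 (45.5%, beside 52.5%), with a median of -0.05. Both knockdown arrays stood above both control arrays in 6 (10.9%, beside 23.5%) and below them in 15 (27.3%, beside 21.6%). The list holds regulators of the pathway as well as genes induced by low oxygen. Ak4, a mitochondrial adenylate kinase, had 364.1 and 291.0 in knockdown, against 168.6 and 172.1 in control (log2 0.87, SE 0.22, limma adjusted p = 0.0277). Bhlhe40, a transcriptional repressor of the circadian and hypoxia responses, had 1033 and 1152 in knockdown, against 711.1 and 736.6 in control (log2 0.58, SE 0.15, limma adjusted p = 0.0285). These 2 genes stood higher on both knockdown arrays. Cxcr4, a chemokine receptor, had 518.9 and 515.5 in knockdown, against 851.6 and 866.4 in control (log2 -0.71, SE 0.16, limma adjusted p = 0.00986). Ccng2, a cyclin of resting cells, had 465.0 and 473.4 in knockdown, against 720.6 and 782.2 in control (log2 -0.66, SE 0.16, limma adjusted p = 0.0206). Each of the 4 calls was lost without control replicate 1 (adjusted p = 0.0787 for Ak4, 0.184 for Bhlhe40, 0.0539 for Cxcr4 and 0.0668 for Ccng2) and without control replicate 2 (0.0592, 0.109, 0.0644 and 0.166 in the same order). Ak4 was also lost without knockdown replicate 1 (0.156) and Bhlhe40 without knockdown replicate 2 (0.0972). Without the brightness filter or the variance trend none of the 4 passed.

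**Figure D4:**
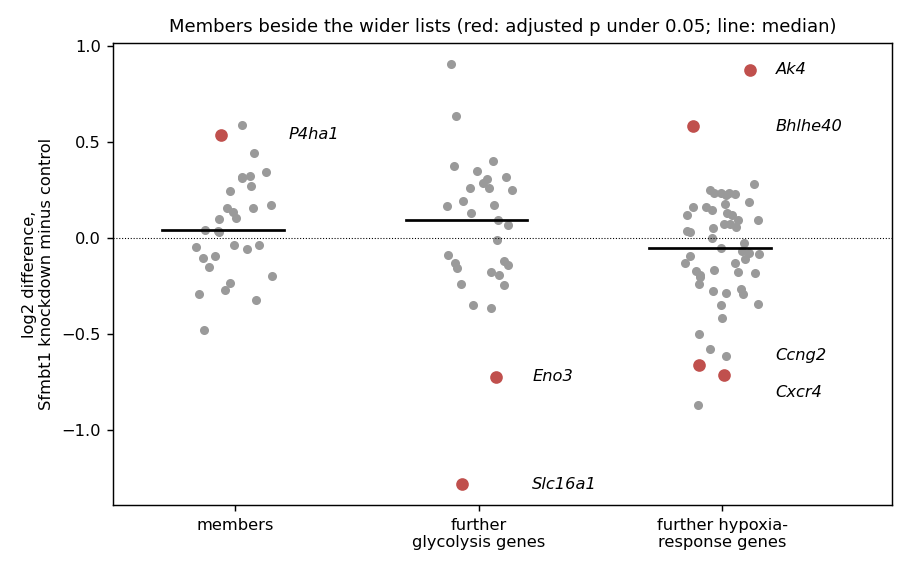
Log2 difference, knockdown minus control, of the tested members, further glycolysis genes and further hypoxia-response genes (1 point per gene; red for an adjusted p under 0.05, lines for medians). The member points lie between -0.48 and 0.59, and Slc16a1 at -1.28 is the lowest of the further glycolysis genes.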

How the data were processed

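Total RNA of 2 knockdown and 2 control samples was labelled and hybridised to 1 Affymetrix array each. The deposited values are signal intensities of 45101 probe sets, which the authors computed using MAS5 and GCOS, the tools named in the submitters' processing notes; no scaling target is named there. The submitters' platform annotation assigned 34945 probe sets to 1 gene, 932 to several and 9160 to none, and 64 were controls; 34741 of those with 1 gene matched RefSeq and 204 did not.

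From these intensities log2(signal + 16) was computed here, and 1 probe set per gene was kept, the one with the highest mean. Genes in the upper 60% of mean log2 signal over one-gene probe sets (a signal limit of 76.8) were tested, 11949 in all. Knockdown was compared with control in limma 3.58.1 (R 4.3.3; lmFit, eBayes with a variance trend), two-sided, with Benjamini-Hochberg adjustment over all of them and a threshold of 0.05. The 95% intervals use the moderated statistic. An exact permutation test of 2 against 2 cannot go below p = 0.333, so none is given. Probe sets under the 95th percentile of 27 bacterial controls on an array were called in the background. The number of arrays limits the precision.

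Named in full are called members, the members of each role with the largest absolute difference, and the called genes of the wider lists. Gpi1 was left unmatched because no one-gene probe set was annotated with its symbol. That symbol is also an old synonym of another gene, which was not used in its place. The members and lists were chosen with earlier results of these data known. The analysis was tested on simulated data. Alternatives changed the pseudocount, filter, scaling, variance model, choice of probe set and arrays, and fitted the replicate number as a block; deviations of arrays with the same number correlated at 0.024, and the labels give no shared origin for them.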

Additional observations from a re-analysis of the deposited data

How the results depend on the processing

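The 1 member called higher became 0 with a pseudocount of 1, without the filter, without the variance trend, without probe sets shared between transcripts and with the limit over all probe sets, the last chosen after seeing the data. It became 2 with the upper 40% (Ldha and P4ha1), with quantile normalization (Aldoa and Ldha) and with every probe set (Arnt and Ldhb). It became 3 with centred arrays (Aldoa, Ldha and P4ha1). The 216 higher calls over all genes also became 308 of 8564 with the upper 40%. They became 295 of 11949 with quantile normalization and 430 of 11949 with centred arrays, and 291 of 20967 probe sets passed with every probe set. The 0 members called lower became 1 with the upper 40% (Egln3, limma adjusted p = 0.0322), beside 356 of 8564 genes. With every probe set 1 was lower (Hk1), beside 437 of 20967 probe sets. With 1 array left out, 0 to 1 were higher and 0 to 1 lower. P4ha1 passed in 7 of 16 alternatives, at adjusted p from 0.0114 to 0.580; the cause was not tested.

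The replicate numbers have no stated pairing (correlation of deviations 0.024, 2 pairs); with them as a replicate block 3 members were higher (Aldoa, Ldha and P4ha1), among 341 genes. Over all genes, the 216 higher became 23 without the filter, 430 with centred arrays, 12 without the trend, and 132 to 410 with 1 array left out. The 253 lower became 32 without the filter, 1 without the trend, 437 with every probe set, and 121 to 445 with 1 array left out. The share of calls that were higher was 46.1%, and 63.6% after centring. Without the trend 1525 genes had an unadjusted p under 0.05. The median of all genes was 0.06 after centring and 0.02 before.

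Of 482 member differences under these alternatives 443 kept direction and call, 9 lost a call, 9 gained one, and 21, in 11 members, changed sign. Those were, after centring, Egln1 (0.0080), Slc2a1 (0.011) and Pdk1 (0.00076); after quantile normalization Pgk1 (-0.029); and without shared probe sets Arnt (0.058) and Vegfa (0.029). With 1 array left out the ranges were -0.22 to 0.016 for Hif1a, -0.21 to 0.025 for Arnt, -0.25 to 0.17 for Egln1, -0.18 to 0.11 for Slc2a1, -0.55 to 0.083 for Pfkfb3, -0.0098 to 0.075 for Pgk1, -0.00063 to 0.20 for Ldhb, -0.12 to 0.028 for Pdk1, -0.11 to 0.17 for Bnip3 and -0.036 to 0.30 for Ankrd37. None of these 11 members passed in the comparison as reported. The median over members stayed between 0.01 and 0.13 with 1 array left out. Signals near the background limit leave Epas1, Slc2a3 and Pfkfb3 unresolved.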
